A study of Homo sapiens with 9 samples.

Results

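The genes described here surround the TRIDENT locus on the short arm of chromosome 16 in H1975 cells. TRIDENT is a long noncoding RNA, and the members are all GENCODE 29 genes that overlap chr16:2931217-4950586 (hg38), which is the target gene with 1 Mb on either side, with olfactory receptor genes left out. That gave 116 genes, of 56823 in the whole data set. Of these, 110 had a row of values, 6 were not analysed here, and 65 had enough reads to be tested among 19658 genes tested in all, 48 of them protein coding.

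H1975 is an established line of human lung adenocarcinoma. Its total RNA was sequenced after removal of ribosomal RNA in 3 groups of 3 libraries. All cells carried TRE-dCas9-KRAB, a catalytically dead Cas9 fused to a KRAB repressor domain under a doxycycline-dependent promoter. The groups were TRIDENT gRNA2, TRIDENT gRNA1 and a non-targeting guide (NTgRNA control), each with 4 ug/ml doxycycline for 72 h. The controls thus carried the repressor construct and received doxycycline as well, and the level of the repressor was not tested. The labels do not say whether the line was 1 clone, whether replicates were separate cultures, or which bases the guides match. P-values therefore measure only the spread between these libraries, which may be technical.

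A KRAB domain held at a guide's site recruits the scaffold protein TRIM28 and histone-modifying enzymes, and the repressive chromatin made there can extend beyond the site itself. Genes around a target are therefore commonly read out beside the target in this kind of experiment. Some long noncoding RNAs also act on genes next to their own locus. The region around this locus, in band 16p13.3, holds the acetyltransferase gene CREBBP, the adenylyl cyclase gene ADCY9 and a cluster of zinc finger genes toward the telomere.

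Libraries held 16918432 to 26466536 estimated reads, and the 116 genes together took 0.111% to 0.122% of them. All 8 epithelial and lung cancer line markers checked, among them EPCAM, CDH1 and EGFR, were at 10 CPM or more in each library (CPM are counts scaled to a common library size). Their summed level was 4030 to 4170 CPM with gRNA2, 4030 to 4140 CPM with gRNA1 and 4250 to 4460 CPM in the controls. Of 6 blood cell markers 3 stayed under 1 CPM in all libraries and 1 of those was at 0. The others, CD68, LYZ and PTPRC, reached 1 CPM in at least 1 library, and 1 of them was at 10 CPM or more in each library. Of 6 fibroblast and endothelial markers 3 stayed under 1 CPM in all libraries. COL1A1, DCN and PECAM1 reached 1 CPM in at least 1 library, and 1 of them was at 10 CPM or more in each library. Summed blood cell markers were at 65.8 to 76.4 CPM with gRNA2, 63.1 to 66.2 CPM with gRNA1 and 65.1 to 70.2 CPM in the controls, and summed fibroblast and endothelial markers at 17.5 to 20.8 CPM with gRNA2, 15.8 to 19.9 CPM with gRNA1 and 16 to 18.7 CPM in the controls. The part of these differences in the results below was not tested. In bulk RNA, fewer cells of a type and less RNA per cell cannot be told apart.

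The target itself was matched by name. The RefSeq symbol TRIDDENT lists TRIDENT as a synonym, and its gene is ENSG00000262185.2, named AC005736.1 in GENCODE 29, a long intergenic noncoding gene at chr16:3931217-3950586 on the minus strand. It has 3 annotated transcripts. ENST00000576810.1 has 2 exons and 1394 bases and starts at position 3950444. ENST00000649221.1 has 3 exons and 617 bases and starts further upstream, at 3950586, and ENST00000571302.1 has 3 exons and 774 bases and starts inside the locus, at 3946305. Most of ENST00000576810.1 is its second exon, chr16:3947609-3948829, whose 1221 bases are in neither of the others. ENST00000649221.1 reaches further upstream than the others, and ENST00000571302.1 further downstream, to 3931217. Of the exons, 3 short ones are printed below 5′ to 3′ from GENCODE 29 (hg38, minus strand), to show which stretches the transcripts share and which they do not. The first runs over chr16:3950272-3950444 and is held by ENST00000576810.1 and ENST00000649221.1, the second over chr16:3946153-3946305 and is held by ENST00000571302.1 alone, and the third over chr16:3943260-3943375 and is held by ENST00000571302.1 and ENST00000649221.1.
first exon of ENST00000576810.1: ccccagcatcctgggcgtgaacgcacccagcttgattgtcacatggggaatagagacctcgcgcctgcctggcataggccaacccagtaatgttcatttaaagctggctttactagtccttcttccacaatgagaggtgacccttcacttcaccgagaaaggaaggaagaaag
first exon of ENST00000571302.1: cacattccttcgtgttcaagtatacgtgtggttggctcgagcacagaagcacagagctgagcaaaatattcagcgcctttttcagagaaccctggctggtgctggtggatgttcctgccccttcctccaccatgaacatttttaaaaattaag
second exon of ENST00000571302.1: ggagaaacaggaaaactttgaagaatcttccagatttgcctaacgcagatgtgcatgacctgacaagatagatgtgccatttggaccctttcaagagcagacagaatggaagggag

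The RefSeq promoter window of TRIDDENT (GRCh38.p14, 250 bases before the start to 50 after it) covers chr16:3950395-3950694 on the minus strand, and with it the starts of ENST00000576810.1 and ENST00000649221.1 but not that of ENST00000571302.1. It is shown because a KRAB repressor is usually aimed at a start site. Capitals mark CG pairs.
TRIDDENT promoter window: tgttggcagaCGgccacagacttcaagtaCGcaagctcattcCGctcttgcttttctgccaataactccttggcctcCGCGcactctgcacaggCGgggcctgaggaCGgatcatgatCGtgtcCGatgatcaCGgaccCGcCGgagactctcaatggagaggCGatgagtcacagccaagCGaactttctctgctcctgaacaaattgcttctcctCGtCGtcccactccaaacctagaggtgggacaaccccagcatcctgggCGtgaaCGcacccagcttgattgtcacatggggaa
The window holds 18 CG pairs and is 56.7% G and C, and 44.5% of all RefSeq promoter windows hold at least as many CG pairs. Searched on both strands, it holds the letters TGANTCA once, at position 167 as TGAGTCA, and CCAAT once, at position 59, but neither GGGCGG nor TATAAA. Among all 35116 promoter windows, 7.71% hold TGANTCA, 34.6% CCAAT, 45.0% GGGCGG and 11.5% TATAAA. A letter match is a description of the window and not a binding site. Among the tested members, 50 windows of 39 genes were found, and TGANTCA stood in 2, CCAAT in 25, GGGCGG in 39 and TATAAA in 0 of these windows.

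TRIDDENT was lower in the libraries labelled gRNA1 than in the controls, though not past the threshold, and its level with gRNA2 was close to the controls. The libraries labelled gRNA2 had 2.52, 2.29 and 2.52 CPM, those labelled gRNA1 had 1.77, 2.09 and 1.87 CPM, and the controls had 2.62, 2.28 and 2.85 CPM. All 3 gRNA1 values lay below all gRNA2 and control values, whereas gRNA2 and control values overlapped. The values rest on 61, 60 and 42 reads with gRNA2, 36, 49 and 38 with gRNA1, and 49, 56 and 62 in the controls. The fold with gRNA1 against the controls was 0.744 (95% interval 0.587 to 0.943, unadjusted p = 0.0181, adjusted p = 0.128 over all genes tested, edgeR quasi-likelihood test). With gRNA2 against the controls it was 0.945 (0.753 to 1.19, adjusted p = 0.81, edgeR), an interval that includes no change and whose lower bound is close to the fold seen with gRNA1. With gRNA2 against gRNA1 the fold was 1.27 (1.00 to 1.61, adjusted p = 0.252, edgeR). Because neither guide's fold passed the threshold, the group names used throughout are those of the labels. Of the 31-mers of the gene's transcripts, 12.52% also occur in transcripts of other genes, so a share of its reads could belong elsewhere.

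The 3 transcripts differed in which libraries were low. ENST00000576810.1 held 67.8% of the gene's reads. It was at 1.04, 1.09 and 1.17 TPM (a level per length, scaled to the same total in each library) with gRNA2, 1.1, 1.1 and 0.773 TPM with gRNA1, and 1.14, 0.972 and 1.04 TPM in the controls. The groups overlapped in each of the 3 comparisons, and only gRNA1 replicate 3 stood below the rest. The mean TPM difference of ENST00000576810.1 was 0.0481 for gRNA2 minus control (exact permutation p = 0.5) and -0.0606 for gRNA1 minus control (exact permutation p = 0.8).

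ENST00000571302.1, which starts inside the locus, held 29% of the reads. Its level was 1.71, 1.32 and 1.69 TPM with gRNA2, 0.312, 0.94 and 1.09 TPM with gRNA1, and 1.26, 1.33 and 2.03 TPM in the controls. All 3 gRNA1 libraries lay below all other libraries, and gRNA2 and control libraries overlapped. Summed over each group the transcript had 52.8 reads with gRNA2, 26.1 with gRNA1 and 52.8 in the controls. The gRNA1 minus control difference was -0.761 TPM (exact two-sided permutation p = 0.1, 0.225 adjusted over 9 tests), and the gRNA2 minus gRNA1 difference was 0.796 TPM (the same p-values). With 3 libraries against 3, 0.1 is the smallest p this test can give.

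ENST00000649221.1 was the scarcest, with 3.15% of the reads. It had 1.25, 1.15 and 0 estimated reads with gRNA2, 0, 0 and 1.34 with gRNA1, and 3.63, 4.03 and 2.87 in the controls. All 6 guide libraries lay below all 3 controls, at 0.063 ± 0.0551 TPM with gRNA2, 0.0385 ± 0.0667 TPM with gRNA1 and 0.312 ± 0.0649 TPM in the controls (mean ± SD, n = 3 each). Both differences from the controls had an exact permutation p of 0.1 (0.225 adjusted over 9 tests), and they rest on group sums of 2.4, 1.34 and 10.5 reads. Transcripts of other genes hold 12.61% of the 31-mers of ENST00000576810.1, 15.19% of those of ENST00000571302.1 and 9.54% of those of ENST00000649221.1. Because the transcripts overlap, the estimated reads of one depend on those of the others.

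**Figure D1:**
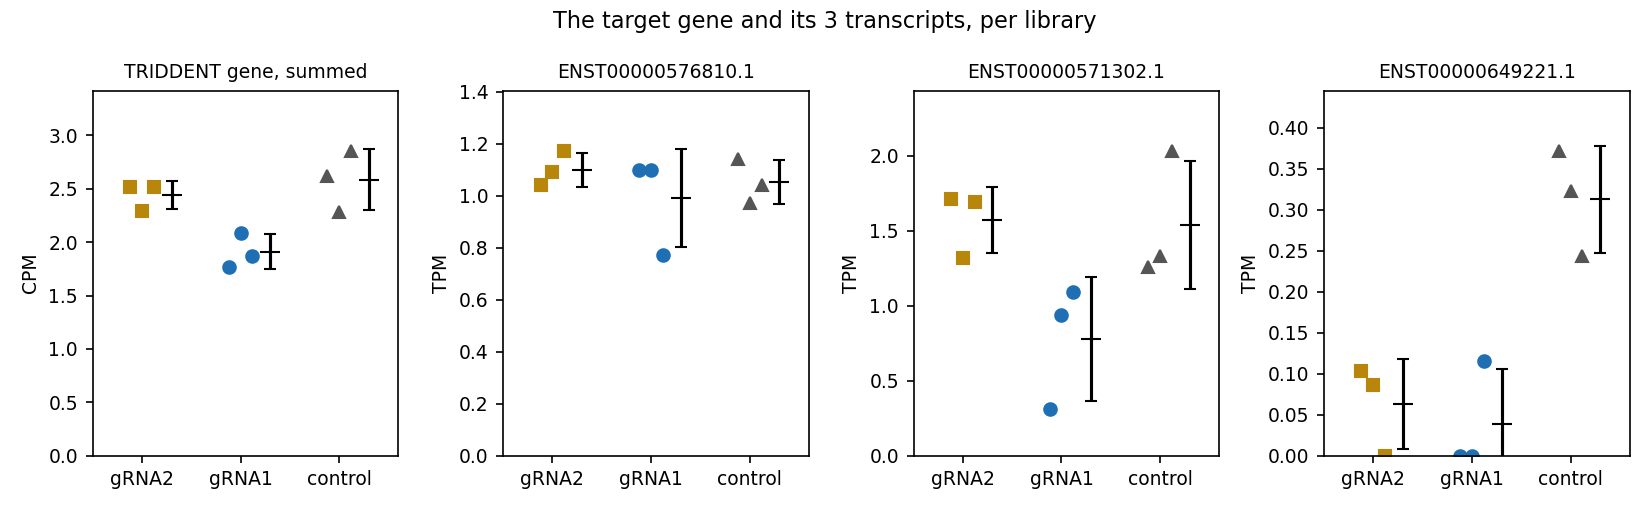
CPM of the TRIDDENT gene and TPM of its 3 transcripts in each library (points), with the mean and SD of each group beside them (bar), for gRNA2, gRNA1 and control. The gRNA1 points lie below the others for the gene and for ENST00000571302.1, all groups overlap for ENST00000576810.1, and both guide groups lie below the controls for ENST00000649221.1.

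In control cells the neighbourhood was expressed unevenly, with few strong genes. Levels here are TPM, per length, summed over the transcripts of a gene, as the mean of the 3 controls. In such a sum a short transcript with few reads can weigh heavily. The highest were the mitochondrial HSP90 chaperone TRAP1 at 72.3 ± 5.6 TPM and the TWEAK receptor TNFRSF12A at 71.5 ± 1.2 TPM, which did not differ beyond their SDs. CREBBP followed at 34.5 ± 3.81 TPM, then the mitochondrial co-chaperone DNAJA3 at 31.6 ± 2.22, the nucleosome-binding protein GLYR1 at 27.9 ± 1.55 and the acetyltransferase NAA60 at 27.0 ± 2.89 TPM. From CREBBP down to NAA60, neighbours in this order differed by no more than the sum of their SDs, while TNFRSF12A and CREBBP differed by far more. The CREBBP transcripts with 52.0%, 28.6% and 10.0% of its reads were at only 4.9, 4.14 and 3.01 TPM in the controls. Most of the summed level of CREBBP, and with it its place in this order, thus came from transcripts with few reads. ADCY9 was 28th of the 65 tested members at 7.36 ± 0.78 TPM, and TRIDDENT was 40th at 2.9 ± 0.36 TPM, between the nuclear protein NUDT16L1 at 2.92 ± 0.853 and the dynein adaptor BICDL2 at 2.81 ± 0.272 TPM. The median of the tested members was 4.01 TPM against 6.74 TPM over all tested genes, and 20 members were above 10 TPM. The 45 members with a row that were not tested had at most 67 reads over all 9 libraries, and 10 of them had no read.

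**Figure D2:**
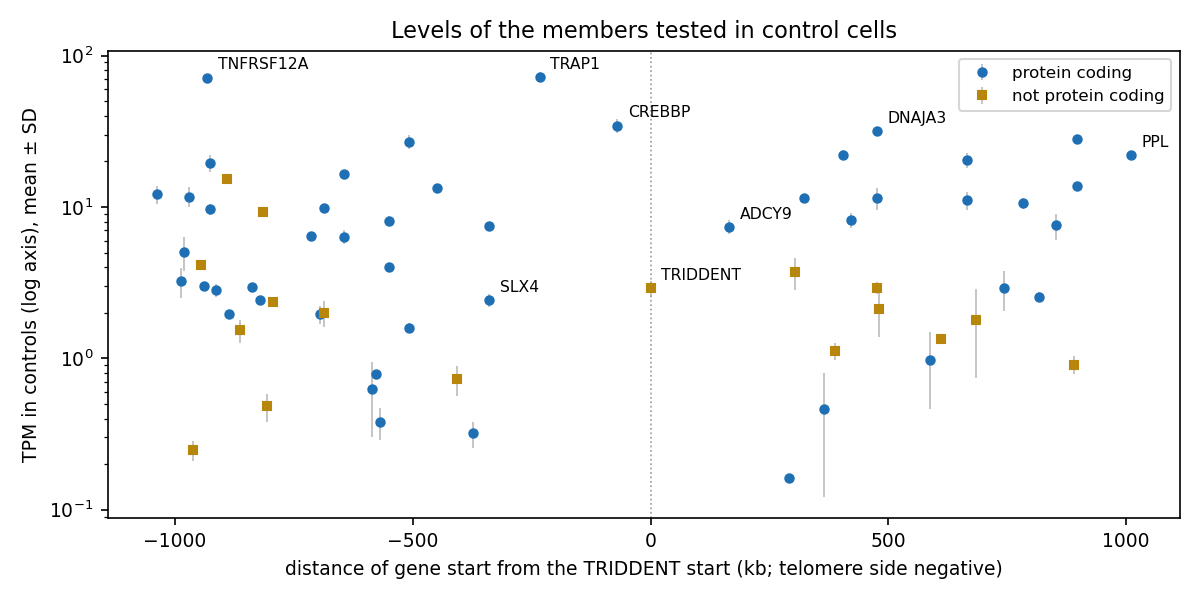
Level of each tested member in the controls (TPM, log axis, mean ± SD, n = 3) against the distance of its start from the TRIDDENT start in kb, negative toward the telomere. TRAP1 at 72.3 TPM and TNFRSF12A at 71.5 TPM stand highest, and TRIDDENT at 2.9 TPM lies below both of its nearest tested neighbours.

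Around the target few genes passed the test with either guide. With gRNA1 against the controls, 2 of the 65 tested members passed an adjusted p of 0.05 and both were higher, which is 3.08% beside the background of 7.08% of all genes tested (3.49% higher, 3.58% lower). An unadjusted p under 0.05 was found for 11 members (16.9%, against 22.0% of all genes). With gRNA2 against the controls 0 of 65 passed, beside 8.44% of all genes tested (3.69% higher, 4.75% lower). DESeq2 also called 0 there, and 8 members had an unadjusted p under 0.05 in edgeR (12.3%, against 23.3% of all genes). With gRNA2 against gRNA1, 2 members passed and both were lower, 3.08% beside a background of 6.22% (3.12% higher, 3.1% lower), and 10 had an unadjusted p under 0.05 (15.4%, against 19.6%). DESeq2 called DNASE1 and the plakin gene PPL with gRNA1 and the same 2 members as edgeR between the guides. The 2 comparisons with the controls share the control libraries. Calls among the 905 tested genes on the rest of chromosome 16 were also uneven in direction. There 37 passed higher and 6 lower with gRNA1, 32 higher and 21 lower with gRNA2, and 13 higher and 35 lower between the guides. Folds with gRNA1 were above 1 for 65.3% of those genes and 64.6% of the members, against 49.9% of all genes tested. Whether the directions seen here are particular to the locus was not tested.

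A somewhat larger share of the members than of all genes had a narrow interval of the fold. The 95% interval of the fold lay within 1.5-fold either way for 49 of 65 members with gRNA1, for 49 with gRNA2 and for 48 with gRNA2 against gRNA1 (75.4%, 75.4% and 73.8%). Over all genes tested these shares were 67.9%, 68.5% and 70.0%. It lay within 2-fold for 60, 60 and 61 members (92.3%, 92.3% and 93.8%), against 86.8%, 87.4% and 88.7% of all genes. The median log2 fold of the members was 0.05 with gRNA2, 0.04 with gRNA1 and -0.02 for gRNA2 against gRNA1. Over the 905 tested genes on the rest of chromosome 16 the medians were 0.05, 0.05 and -0.02. All 3 libraries of 1 group lay beyond all 3 of the other for 14 members with gRNA2 (21.5%, against 27.4% of all genes), for 16 with gRNA1 (24.6%, against 28.1%) and for 7 between the guides (10.8%, against 23.8%).

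Within 200 kb of the target gene body only 3 members were tested, TRIDDENT itself, ADCY9 and CREBBP. The other listed genes there are pseudogenes and an antisense gene with too few reads. ADCY9, a membrane adenylyl cyclase that makes cyclic AMP, is the closest gene. It lies at chr16:3953387-4116185 on the same strand as TRIDDENT, 2801 bases from it at its 3′ end, and the starts of the genes are 166 kb apart. ADCY9 was at 54.5, 51.5 and 49.2 CPM with gRNA2, 49.3, 53.7 and 54.7 CPM with gRNA1, and 46.8, 46.5 and 45.9 CPM in the controls. All 6 guide libraries were higher than all 3 controls, and the guide groups overlapped each other. The fold was 1.12 with gRNA2 (95% interval 1.04 to 1.21, adjusted p = 0.0696, edgeR) and 1.13 with gRNA1 (1.05 to 1.22, adjusted p = 0.0488, edgeR). Between the guides it was 0.986 (0.914 to 1.06, adjusted p = 0.887, edgeR). The call with gRNA1 stands close to the threshold: it ended without any single control, without gRNA1 replicate 2 or 3 and without gRNA2 replicate 2 (adjusted p between 0.0745 and 0.157), and under DESeq2 (0.0557), the replicate block (0.0747) and a transcript length offset (0.233). With that offset, which adjusts the counts for the lengths of the transcripts in use, the log2 fold with gRNA1 was 0.20, against 0.18 without it. With gRNA2 it was 0.34 with the offset (adjusted p = 0.0512), against 0.16 without it. Of the reads of ADCY9, 96.3% fell on ENST00000294016.7, with 6.32 ± 0.101 TPM with gRNA2, 6.32 ± 0.413 TPM with gRNA1 and 5.53 ± 0.244 TPM in the controls (n = 3 each). No exonic base of ADCY9 lies in another gene, and 1.23% of its 31-mers occur elsewhere.

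CREBBP, the acetyltransferase CBP that serves many transcription factors as a coactivator, lies on the other side of the target at chr16:3725054-3880726, 50.5 kb away. It was at 111, 110 and 110 CPM with gRNA2, 115, 118 and 122 CPM with gRNA1, and 120, 117 and 114 CPM in the controls. The gRNA2 libraries lay below all others, and gRNA1 and control libraries overlapped. The fold was 0.945 with gRNA2 (95% interval 0.894 to 1.00, adjusted p = 0.215, edgeR), 1.01 with gRNA1 (0.955 to 1.07, adjusted p = 0.859, edgeR) and 0.936 between the guides (0.884 to 0.99, adjusted p = 0.169, edgeR). None of these passed, and the 3 intervals together run from 0.884 to 1.07. With the transcript length offset the log2 fold was 0.0 with gRNA2 (adjusted p = 1.0), against -0.08 without it, and 0.02 between the guides (adjusted p = 0.957), against -0.10 without it. The promoter window of CREBBP, chr16:3880664-3880963 on the minus strand, holds 36 CG pairs and GGGCGG at 3 places.

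**Figure D3:**
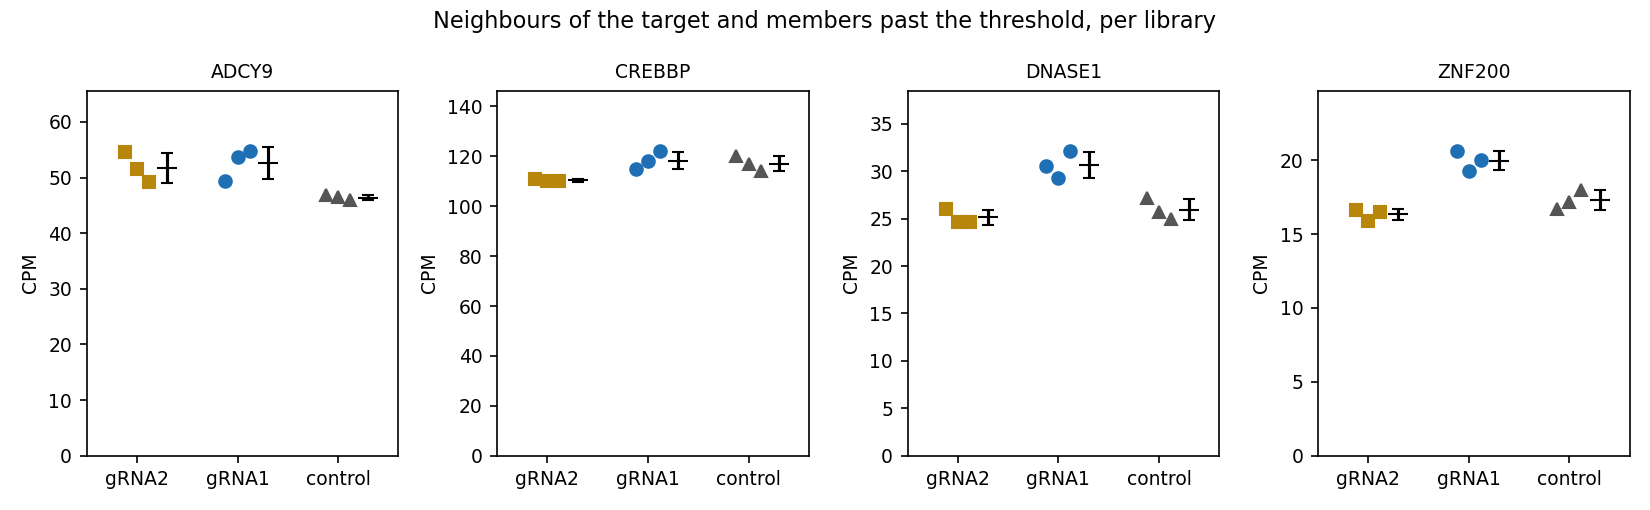
CPM per library (points) with the mean and SD of each group (bar) for the nearest genes ADCY9 and CREBBP and for DNASE1 and ZNF200, for gRNA2, gRNA1 and control. ADCY9 is higher in all 6 guide libraries than in the 3 controls, and DNASE1 and ZNF200 are higher in the 3 gRNA1 libraries than in the other 6.

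Between 200 and 500 kb, 20 of 33 listed members were tested. Of these, 0 were called with gRNA2 in edgeR (1 at an unadjusted p under 0.05), 1 with gRNA1 and 1 between the guides, and the called member was DNASE1 both times. DNASE1, a secreted enzyme that cuts DNA, lies 251 kb toward the telomere at chr16:3611728-3680143 on the plus strand. It was at 26.0, 24.7 and 24.7 CPM with gRNA2, 30.6, 29.3 and 32.1 CPM with gRNA1, and 27.2, 25.7 and 25.0 CPM in the controls. The 3 gRNA1 libraries were the highest of the 9, and gRNA2 and control libraries overlapped. The fold was 0.971 with gRNA2 (95% interval 0.891 to 1.06, adjusted p = 0.718, edgeR), 1.18 with gRNA1 (1.09 to 1.29, adjusted p = 0.0212, edgeR), and 0.822 with gRNA2 against gRNA1 (0.755 to 0.895, adjusted p = 0.00882, edgeR). The call with gRNA1 ended without control replicate 2 or 3 and without gRNA1 replicate 1 or 3 (adjusted p between 0.0688 and 0.101), and the call between the guides ended without gRNA2 replicate 2 (0.0504). Both ended with a transcript length offset (0.437 in each), where the log2 folds were 0.18 with gRNA1 and -0.20 between the guides.

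The reads of DNASE1 were spread over several transcripts. ENST00000407479.5 held 50.3% of them and was at 1.06, 1.22 and 1.25 TPM with gRNA2, 1.43, 1.49 and 1.4 TPM with gRNA1, and 1.19, 1.21 and 1.09 TPM in the controls, so the gRNA1 libraries were again the highest. ENST00000246949.9 held 31.5% and was at 1.69 ± 0.042 TPM with gRNA2, 1.78 ± 0.155 TPM with gRNA1 and 1.61 ± 0.109 TPM in the controls (n = 3 each), with overlapping groups. Of the gene's 13801 exonic bases, 1853 overlap exons of genes on the other strand, and 15.84% of its 31-mers occur in transcripts of other genes. Whether counting used the strand is not given in the sources used here, so reads of the overlapping stretches cannot be assigned with certainty.

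The annotated starts of the genes DNASE1 and SLX4 lie head to head. SLX4, a scaffold for nucleases that resolve branched DNA and repair crosslinks, runs from position 3611598 on the minus strand. The RefSeq window of DNASE1 at chr16:3611510-3611809 (GRCh38.p14, plus strand) includes that start, and is shown because the annotated starts of both genes lie in it. The DNASE1 transcripts with the most reads start outside it, ENST00000407479.5 at 3642938 and ENST00000246949.9 at 3651837. ENST00000570769.5, a nonsense-mediated decay form with 10% of the gene's reads, starts in it, at 3611728. Capitals mark CG pairs.
DNASE1 promoter window: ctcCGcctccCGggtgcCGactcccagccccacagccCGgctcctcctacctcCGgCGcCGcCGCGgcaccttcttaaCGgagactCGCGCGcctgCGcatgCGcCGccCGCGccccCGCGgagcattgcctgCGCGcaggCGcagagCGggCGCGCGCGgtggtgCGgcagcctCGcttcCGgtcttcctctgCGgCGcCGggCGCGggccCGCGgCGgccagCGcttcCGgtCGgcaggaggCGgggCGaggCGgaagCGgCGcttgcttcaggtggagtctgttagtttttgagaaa
It holds 47 CG pairs, and 2.41% of all promoter windows hold as many. SLX4 was at 15.6, 15.2 and 14.2 CPM with gRNA2, 15.1, 17.4 and 16.6 CPM with gRNA1, and 17.9, 16.5 and 15.4 CPM in the controls. Its groups overlapped in all 3 comparisons, with folds of 0.908 with gRNA2 (0.808 to 1.02, adjusted p = 0.305, edgeR), 0.988 with gRNA1 (0.881 to 1.11, adjusted p = 0.932, edgeR) and 0.918 between the guides (0.817 to 1.03, adjusted p = 0.435, edgeR).

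TRAP1, whose exons overlap those of DNASE1 on the opposite strand, was at 111, 104 and 105 CPM with gRNA2, 109, 108 and 119 CPM with gRNA1, and 114, 107 and 105 CPM in the controls. These groups also overlapped. Its folds were 0.98 with gRNA2 (0.915 to 1.05, adjusted p = 0.771, edgeR) and 1.03 with gRNA1 (0.961 to 1.1, adjusted p = 0.648, edgeR). Of its 31-mers, 26.23% occur in transcripts of other genes.

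The extreme folds of the 200 to 500 kb band came from genes with few reads. GLIS2, a zinc finger transcription factor known for its role in the kidney, had 36, 0 and 7 reads with gRNA2, 29, 32 and 12 with gRNA1, and 12, 22 and 54 in the controls. Its libraries differed within each group by as much as between groups, and its log2 fold of -1.07 with gRNA2 had an SE of 0.73 (adjusted p = 0.408, edgeR). SRL, which encodes the calcium-binding muscle protein sarcalumenin, was at 0.593 ± 0.117 CPM with gRNA2, 0.789 ± 0.216 CPM with gRNA1 and 0.815 ± 0.0125 CPM in the controls (n = 3 each). All 3 gRNA2 libraries of SRL lay below the controls at 11 to 16 reads, with a fold of 0.717 (0.46 to 1.12, adjusted p = 0.364, edgeR). AC025283.3, of whose 31-mers 88.92% occur in other genes, had folds of 1.44 with gRNA2 (adjusted p = 0.427, edgeR) and 1.12 with gRNA1 (adjusted p = 0.85, edgeR). AC012676.3, a noncoding gene within an intron of DNAJA3, had folds of 1.3 with gRNA2 (adjusted p = 0.417, edgeR) and 1.01 with gRNA1 (adjusted p = 0.979, edgeR).

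Between 500 kb and 1 Mb, 42 of 77 listed members were tested. Against the controls 0 were called with either guide in edgeR (6 with gRNA2 and 7 with gRNA1 at an unadjusted p under 0.05), and 1 was called between the guides. That member was ZNF200, a zinc finger protein gene 695 kb toward the telomere at chr16:3222325-3236221 on the minus strand. ZNF200 was at 16.6, 15.9 and 16.5 CPM with gRNA2, 20.6, 19.3 and 20 CPM with gRNA1, and 16.7, 17.2 and 18.0 CPM in the controls. The gRNA1 libraries were the highest 3 of the 9, and the gRNA2 libraries lay just below the controls. With gRNA2 against gRNA1 the fold was 0.816 (95% interval 0.744 to 0.895, adjusted p = 0.0116, edgeR). Against the controls it was 0.942 with gRNA2 (0.858 to 1.03, adjusted p = 0.447, edgeR) and 1.15 with gRNA1 (1.05 to 1.26, adjusted p = 0.0593, edgeR). The call between the guides ended without gRNA1 replicate 1 or gRNA2 replicate 2 (adjusted p 0.0625 and 0.0687) and with a transcript length offset, where the log2 fold was -0.1 (adjusted p = 0.644). With the same offset the log2 fold with gRNA1 against the controls was 0.02 (adjusted p = 0.933), against 0.21 without it. The transcript with the most reads was a retained intron form, ENST00000575285.1, with 42.5%.

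Other members of this band stood out by fold alone. CDIP1, a cell death gene induced by p53, had 71, 79 and 1 reads with gRNA2, 126, 85 and 25 with gRNA1, and 34, 56 and 8 in the controls. In each group replicate 3 was the lowest by far. Its transcript ENST00000567695.5, with 80.4% of the gene's reads, was at 0 in replicate 3 of each of the 3 groups. The log2 fold of CDIP1 was 0.52 with gRNA2 (SE 0.71, adjusted p = 0.715, edgeR) and 1.30 with gRNA1 (SE 0.67, adjusted p = 0.276, edgeR). With the replicate number as a block, CDIP1 passed with gRNA1 (log2 fold 1.31, adjusted p = 0.0324), and without a filter on low counts it also passed (adjusted p = 1.87e-08).

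The cytokine gene IL32 had 42, 41 and 30 reads with gRNA2, 26, 28 and 26 with gRNA1, and 36, 41 and 36 in the controls. At the common library scale this was 1.7 ± 0.122 CPM with gRNA2, 1.25 ± 0.0492 CPM with gRNA1 and 1.75 ± 0.152 CPM in the controls (n = 3 each). All 3 gRNA1 libraries lay below the other 6, but the folds of 0.717 with gRNA1 against control (0.547 to 0.941, adjusted p = 0.145, edgeR) and 1.35 with gRNA2 against gRNA1 (1.03 to 1.77, adjusted p = 0.224, edgeR) did not pass. With the transcript length offset the log2 fold of IL32 with gRNA1 was -0.69 (adjusted p = 0.096), against -0.48 without it. PAQR4, a membrane protein of the progestin and adipoQ receptor family, had overlapping groups and folds of 0.823 with gRNA2 (adjusted p = 0.275, edgeR) and 0.902 with gRNA1 (adjusted p = 0.608, edgeR). RN7SL850P, a pseudogene of the signal recognition particle RNA with 2 to 13 reads per library, had folds of 1.48 with gRNA2 (adjusted p = 0.499, edgeR) and 1.51 with gRNA1 (adjusted p = 0.49, edgeR). AC020663.3, a noncoding gene within GLYR1, had folds of 1.27 with gRNA2 (adjusted p = 0.462, edgeR) and 1.44 with gRNA1 (adjusted p = 0.244, edgeR).

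**Figure D4:**
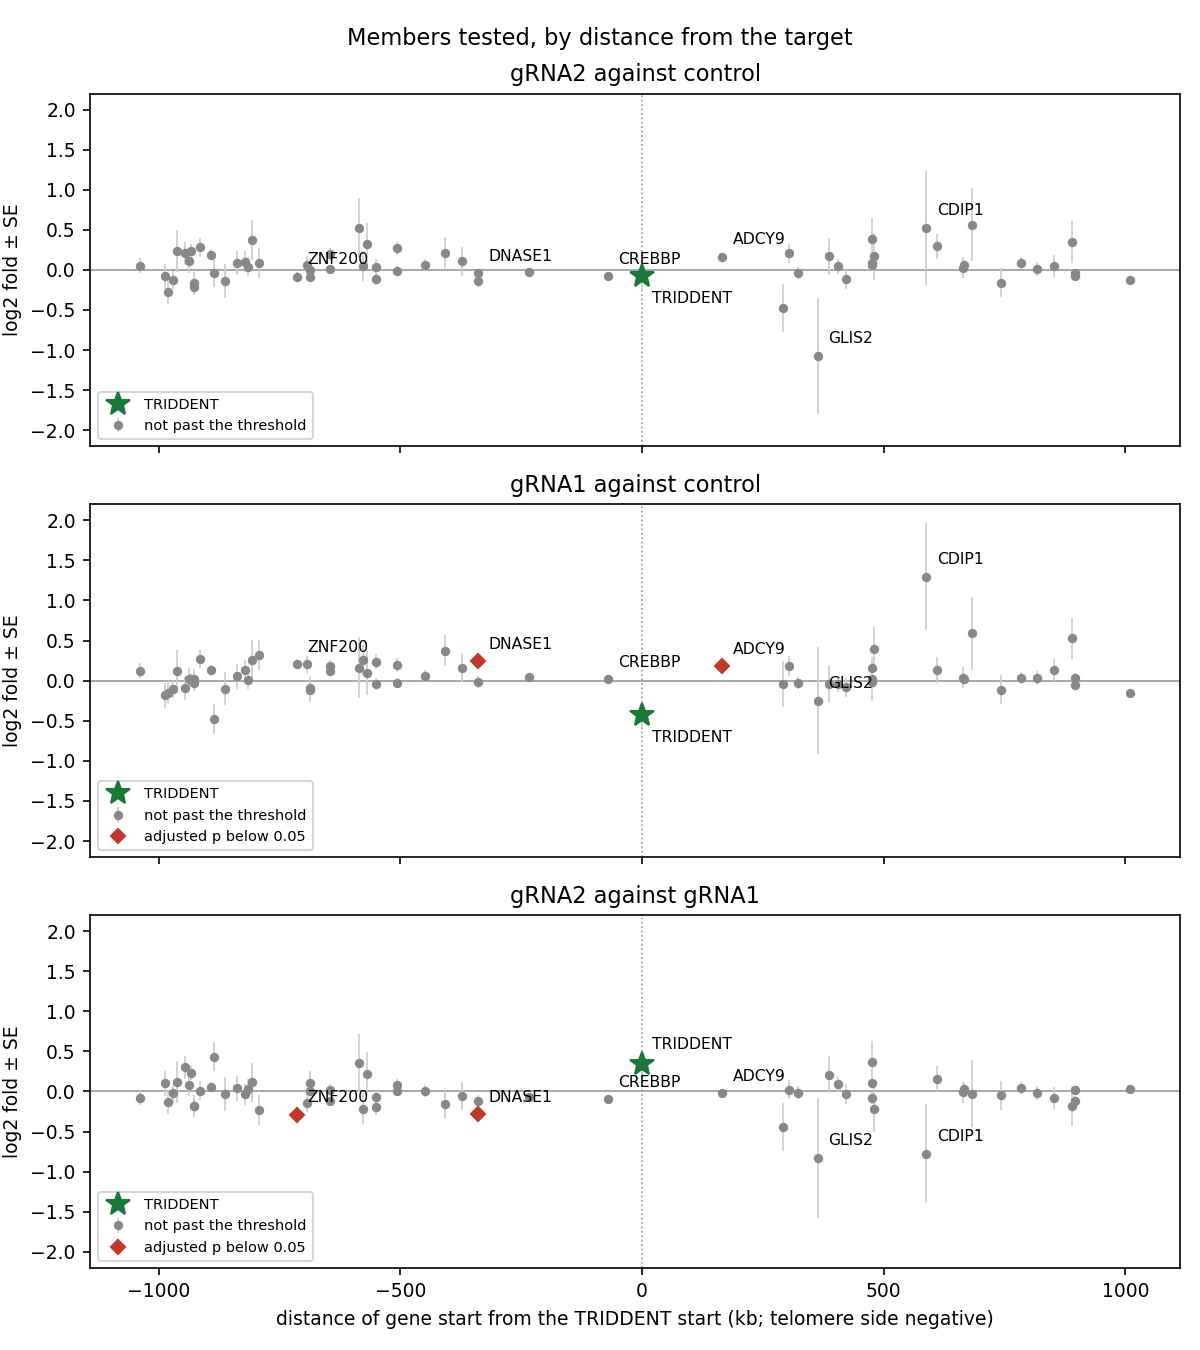
Log2 fold ± SE of each of the 65 tested members against the distance of its start from the TRIDDENT start in kb, negative toward the telomere, for gRNA2 against control, gRNA1 against control and gRNA2 against gRNA1. Diamonds mark an adjusted p below 0.05 (0, 2 and 2 members) and the star marks TRIDDENT, and large folds stand at CDIP1 and GLIS2 rather than close to the target.

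Across the 65 tested members, Spearman's rho between the size of the log2 fold and the gap to the target was 0.06 with gRNA2, -0.03 with gRNA1 and -0.08 between the guides. With the expression level it was -0.51 with gRNA2, -0.43 with gRNA1 and -0.47 between the guides, so larger folds stood at less expressed genes. These are descriptions over genes of the same 9 libraries, and genes are not independent replicates. Among the 39 tested members on the telomere side the median log2 fold was 0.05 with gRNA2 and 0.06 with gRNA1, and among the 25 on the centromere side 0.06 and 0.03.

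By role, the counts of called members were small in each list. The lists were written with earlier results of these data known. An unadjusted p under 0.05, given beside each count, was found for 23.3% of all genes tested with gRNA2, for 22.0% with gRNA1 and for 19.6% between the guides. Of 16 tested zinc finger and transcription genes, 0 passed with gRNA2 or gRNA1 against the controls in edgeR (2 and 5 at an unadjusted p under 0.05, which is 12.5% and 31.2%). Between the guides 1 of the 16 passed, ZNF200, lower with gRNA2 than with gRNA1 (5 at an unadjusted p under 0.05, which is 31.2%). Their median log2 fold was -0.01 with gRNA2 and 0.04 with gRNA1, and 15 of 16 intervals lay within 1.5-fold with either guide. Of the zinc finger genes chosen here after their values were seen, ZNF597 was at 11.7 ± 0.214 CPM with gRNA2, 11.1 ± 0.656 CPM with gRNA1 and 9.65 ± 0.801 CPM in the controls (n = 3 each). All its guide libraries lay above all controls, with folds of 1.21 with gRNA2 (1.07 to 1.36, adjusted p = 0.0577, edgeR) and 1.14 with gRNA1 (1.01 to 1.29, adjusted p = 0.185, edgeR). TIGD7, a gene derived from a transposase, likewise lay above the controls in all guide libraries, with folds of 1.15 with gRNA2 (adjusted p = 0.107, edgeR) and 1.13 with gRNA1 (adjusted p = 0.154, edgeR), and 59.58% of its 31-mers occur in other genes. TFAP4, a helix-loop-helix transcription factor, and UBN1, a subunit of the HIRA histone chaperone, stayed close to 1: TFAP4 had folds of 0.972 with gRNA2 and 0.982 with gRNA1, and UBN1 had 0.977 with gRNA2 and 0.967 with gRNA1.

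Of 8 tested signalling, receptor and immune genes, ADCY9 alone passed with gRNA1 and 0 passed with gRNA2 in edgeR. At an unadjusted p under 0.05 there were 2 with either guide and 2 between the guides. TNFRSF12A, chosen here after its values were seen, was at 35.5, 30.8 and 28.5 CPM with gRNA2, 27.2, 24.7 and 29.7 CPM with gRNA1, and 29.4, 25.1 and 26.8 CPM in the controls. Its groups overlapped, with a fold of 1.18 with gRNA2 (1.03 to 1.34, adjusted p = 0.117, edgeR) and 1.01 with gRNA1 (0.881 to 1.15, adjusted p = 0.976, edgeR). Without a filter on low counts TNFRSF12A passed with gRNA2 against the controls (adjusted p = 0.013) and against gRNA1 (adjusted p = 0.0185).

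The 4 DNA repair, cell cycle and RNA export genes were SLX4, the CDK1-inhibiting kinase PKMYT1, the 53BP1-binding protein NUDT16L1 and THOC6, a subunit of the mRNA export complex THO. Of these 0 passed in edgeR (1 with gRNA2, 0 with gRNA1 and 0 between the guides at an unadjusted p under 0.05). The folds of all 4 were below 1 with both guides, as were those of 47.9% of all genes tested with gRNA2 and 50.1% with gRNA1. With 4 genes and shared controls nothing is read from this. Their median log2 fold was -0.15 with gRNA2 and -0.07 with gRNA1. THOC6 was at 10.6, 10.9 and 8.47 CPM with gRNA2, 12.2, 11.9 and 10.2 CPM with gRNA1, and 11.4, 11.7 and 12 CPM in the controls. Its gRNA2 libraries lay below the controls, with a fold of 0.861 (0.744 to 0.997, adjusted p = 0.203, edgeR).

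Of 5 tested mitochondrial, chaperone and enzyme genes only DNASE1 passed, with gRNA1 against the controls and between the guides. At an unadjusted p under 0.05 there were 0 with gRNA2, 1 with gRNA1 and 2 between the guides. DNAJA3 was at 62.1 ± 1.28 CPM with gRNA2, 57.8 ± 1.78 CPM with gRNA1 and 58.5 ± 1.47 CPM in the controls (n = 3 each), with a fold of 1.06 with gRNA2 (0.998 to 1.13, adjusted p = 0.23, edgeR). PAM16, a part of the mitochondrial import motor, had folds of 1.03 with gRNA2 and 0.968 with gRNA1, and NAA60 had 0.99 with gRNA2 and 0.983 with gRNA1.

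Of 3 tested epithelial junction and surface genes 0 passed in edgeR (2 with either guide at an unadjusted p under 0.05, 1 of them higher and 1 lower, and 0 between the guides). Their median log2 fold was 0.10 with gRNA2 and 0.02 with gRNA1, and all 3 are given, chosen after their values were seen. BICDL2 was at 8.29, 7.83 and 8.77 CPM with gRNA2, 8.23, 7.04 and 9.4 CPM with gRNA1, and 7.33, 7.13 and 5.98 CPM in the controls. Its gRNA2 libraries lay above the controls and its gRNA1 libraries overlapped them, with folds of 1.21 with gRNA2 (1.02 to 1.44, adjusted p = 0.163, edgeR) and 1.2 with gRNA1 (1.01 to 1.43, adjusted p = 0.195, edgeR). The tight junction gene CLDN9 had overlapping groups and folds of 1.08 with gRNA2 (adjusted p = 0.709, edgeR) and 1.02 with gRNA1 (adjusted p = 0.952, edgeR). PPL, the desmosome-linked plakin periplakin, was at 165, 158 and 151 CPM with gRNA2, 152, 150 and 163 CPM with gRNA1, and 180, 170 and 166 CPM in the controls. All guide libraries lay below all controls, with folds of 0.917 with gRNA2 (0.855 to 0.984, adjusted p = 0.123, edgeR) and 0.899 with gRNA1 (0.838 to 0.964, adjusted p = 0.067, edgeR). PPL was called with gRNA1 by DESeq2 (adjusted p = 0.0312), without a filter on low counts (0.0141) and without gRNA1 replicate 3 (0.0359) or gRNA2 replicate 1 (0.0458). Of the 9 tested cilia, trafficking and other genes 0 passed in edgeR, and 0 had an unadjusted p under 0.05. Among them the intraflagellar transport gene CLUAP1 had folds of 1.05 with either guide.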

How the data were processed

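Salmon 1.4.0 and hg38 are named in the submitters' processing notes; the index annotation and the strand setting are not given in the sources used here. The authors deposited 1 table per library with an estimated count of reads per transcript, TPM from their run, lengths and effective lengths, per the file headers. Of 211939 transcripts, 95.71% matched GENCODE 29, and the 1.26% to 1.32% of reads on the others were left out. Estimated counts were summed to 56823 genes and rounded.

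In edgeR 4.0.16 (R 4.3.3), filterByExpr kept 19658 genes, TMM scaled the libraries, and 1 quasi-likelihood fit of all 9 libraries gave the 3 two-sided comparisons, with Benjamini-Hochberg adjustment over all genes tested and a threshold of 0.05. The biological coefficient of variation was 0.051. Intervals are 95% and take in the libraries' spread as well as counting error. TPM of the target's transcripts was tested by exact permutation (scipy 1.17.1). Shared 31-mers were counted in the GENCODE 29 transcripts on either strand. The fit was tried beforehand on simulated counts whose changes were set in advance.

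The members and lists were chosen with earlier results of these data known. Genes named are the target, tested members within 200 kb, members past the threshold, CREBBP, ADCY9, SLX4, TRAP1 and DNASE1, the 3 highest and 3 lowest folds of each comparison, and those said to be chosen after their values were seen; the members in the order of levels or given as examples of a list were also chosen so. The alternatives were RLE scaling, DESeq2 1.42.0, a replicate block, all genes with a read, fits of only 2 groups, an offset for transcript length, other sets of members and leaving out each library in turn. Python 3.11.15, pandas 2.3.3, numpy 2.4.6 and matplotlib 3.10.9 were used.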

Additional observations from a re-analysis of the deposited data

Results flagged for a closer look

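The folds of 2 members differed between the guides by a direct test of gRNA2 against gRNA1 (edgeR, adjusted over all genes tested). For ZNF200 the log2 difference was -0.29 (adjusted p = 0.0116), with 16.3 ± 0.386 CPM with gRNA2, 20 ± 0.676 CPM with gRNA1 and 17.3 ± 0.645 CPM in the controls. For DNASE1 it was -0.28 (adjusted p = 0.00882), with 25.2 ± 0.717 CPM with gRNA2, 30.6 ± 1.38 CPM with gRNA1 and 25.9 ± 1.11 CPM in the controls (mean ± SD, n = 3 each). In CPM, all 3 gRNA2 libraries of both genes lay below all 3 gRNA1 libraries, but in TPM the groups overlapped. ZNF200 was at 6.58, 6.39 and 5.98 TPM with gRNA2 and 6.99, 6.56 and 6.2 with gRNA1. DNASE1 was at 8.79, 7.12 and 7.26 TPM with gRNA2 and 8.6, 8.03 and 9.19 with gRNA1. Both calls ended with the transcript length offset (edgeR, adjusted p = 0.644 for ZNF200 and 0.437 for DNASE1). Between the guides 6.22% of all genes tested were called, and the CPM groups did not overlap for 23.8%.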

How the results depend on the processing

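With gRNA1 against the controls, where 2 members were called, 5 were called without a filter on low counts, 0 with the transcript length offset and between 0 and 3 when 1 library was left out. It was 0 without control replicate 2 or 3, 1 without control replicate 1, any single gRNA1 replicate or gRNA2 replicate 2, and 3 without gRNA2 replicate 1. With gRNA2 against the controls, where 0 were called, the unfiltered fit called 4 and leaving out 1 library called between 0 and 1; the 1 was GLIS2, called without gRNA2 replicate 1 (log2 fold -3.01, adjusted p = 0.0495). With gRNA2 against gRNA1, where 2 were called, the unfiltered fit called 5, the length offset 0, and leaving out 1 library between 0 and 2, with 0 without gRNA2 replicate 2 and 1 without gRNA1 replicate 1. The calls over all genes moved as well. The main fit called 1659 genes with gRNA2, 1391 with gRNA1 and 1222 between the guides. With the offset these were 434, 538 and 446, and in the unfiltered fit 2354, 2041 and 1777. With 1 library left out they ran from 671 to 1817 with gRNA2, 654 to 1701 with gRNA1 and 575 to 1215 between the guides. The cause was not tested. The log2 fold of TRIDDENT with gRNA1 was -0.72 with the length offset (adjusted p = 0.0849) and -0.51 to -0.34 when 1 library was left out (adjusted p 0.133 to 0.348), and between the guides it was 0.57 with the offset (adjusted p = 0.198); no alternative brought it past the threshold. The members that the unfiltered fit added were CDIP1, PPL and AC004224.2 with gRNA1, TNFRSF12A, GLIS2, CORO7-PAM16 and AC004224.2 with gRNA2, and CDIP1, TNFRSF12A and CORO7-PAM16 between the guides. AC004224.2 had 14 reads, all in control replicate 3, and 94.79% of its 31-mers occur in other genes. CORO7-PAM16 had 11, 3 and 4 reads with gRNA2 and 0 in all other libraries, and 97.99% of its 31-mers occur in other genes. No named value that was called changed sign. DESeq2, RLE scaling, fits of only 2 groups, protein-coding members and members with few shared 31-mers left each count within 1.5 times.

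The replicate number as a block gave 2, 0 and 2 calls for gRNA1, gRNA2 and the guides against each other; with gRNA1 the 2 were DNASE1 and CDIP1, and ADCY9 was lost (adjusted p = 0.0747). The numbers are not said to mark a shared batch. Over all genes tested, deviations from the group means correlated at -0.046 to 0.073 between libraries of the same number. Between libraries of different numbers the correlations ran from -0.074 to 0.054. A correlation over all genes cannot show a batch that touches few genes, so nothing is concluded from it. The target had 36 to 62 reads per library, which limits the precision of its fold.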
